A study of Mus musculus with 18 samples.

Results

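Sensory neurons store peptides alongside glutamate, and the 10 genes described here encode the precursors of the peptides best known from dorsal root ganglia (DRG): Tac1, Calca, Calcb, Adcyap1, Nppb, Sst, Gal, Npy, Nts and Vip. A gene was described where the platform's gene table pairs a probe set with that gene and no other, which held for 9 of the 10, each with 1 probe set, out of 19938 genes with a probe set of their own. Calca, which encodes the alpha form of calcitonin gene-related peptide (CGRP), had no such probe set and was not analysed here. The data are deposited log2 signals from 18 arrays (Affymetrix, Mouse Gene ST), 3 in each of 6 groups. Naive DRG came from control and mutant mice, and hindpaw epidermis came from both genotypes, each either naive or treated with CFA. Mutant mice were K14Cre-Trpa1 fl/fl, with loxP sites around the exons for the pore of the ion channel TRPA1, and control mice were K14Cre-Trpa1 +/+, labelled wild type. Both genotypes thus carried Cre driven from the gene of keratin 14, a keratin of basal keratinocytes, and DRG neurons are not the cells in which the allele is meant to be cut. The mice were adult males of at least 7 weeks on a mixed C57BL/6, CBA and Swiss Webster background. The colonies of the genotypes had been bred apart for generations, so genotype and colony cannot be told apart. CFA, complete Freund's adjuvant, is an oil emulsion with killed mycobacteria that inflames the injected paw, and tissue was taken 2 days after injection. It was set against naive skin, not against skin injected with vehicle.

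A neuropeptide is cut from a larger precursor by prohormone convertases, packed into dense-core vesicles and released from both ends of the sensory neuron. In the spinal cord it modulates transmission, and in the skin it dilates vessels and acts on immune cells and keratinocytes, a process called neurogenic inflammation. Tac1, Calcb and Adcyap1 belong to the peptidergic nociceptors, where Tac1 encodes substance P and neurokinin A, Calcb the beta form of CGRP, and Adcyap1 the peptide PACAP. Nppb and Sst, the genes of B-type natriuretic peptide and somatostatin, mark a class of itch neurons, and Nts, the gene of neurotensin, is found in the same class. Gal, Npy and Vip encode galanin, neuropeptide Y and vasoactive intestinal peptide, which are scarce in an intact ganglion and rise in sensory neurons after nerve injury.

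Several of these genes are classic targets of cyclic AMP signalling, whose response element in DNA is TGACGTCA. RefSeq promoters of build GRCm38.p6 were at hand for 9 of the 10 members (all but Calcb), and the 250 bases before each start site were searched on both strands. The full element lay in the promoter of Sst alone among the members, against 1.55% of 32851 promoters. Its first letters, TGACG, or their reverse complement CGTCA, are contained in the full element and were found for 6 members, Tac1, Calca, Adcyap1, Sst, Nts and Vip, against 17.8% of all promoters. A member was counted where any of its promoters matched, while both shares are of single promoters, so the measures differ. The stretches below are 60 bases each, written 5′ to 3′ on the coding strand, with the matching letters in capitals. They are shown for Tac1 and Adcyap1, whose DRG groups stood apart below, for Sst, which has the full element, and for Vip, which has the short match yet no signal above background in either tissue.
Tac1, chr6:7554990-7555049, plus strand: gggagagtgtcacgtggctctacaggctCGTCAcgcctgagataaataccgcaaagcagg
Adcyap1, chr17:93198898-93198957, plus strand: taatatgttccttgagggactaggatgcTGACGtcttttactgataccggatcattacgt
Sst, chr16:23890859-23890918, minus strand: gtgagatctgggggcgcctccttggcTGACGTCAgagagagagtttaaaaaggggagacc
Vip, chr10:5639111-5639170, plus strand: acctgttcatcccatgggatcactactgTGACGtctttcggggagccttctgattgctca
A match of letters is a description and not a site shown to be bound. Within these windows Sst holds the short letters on both strands, and the other 3 hold them once.

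A probe set's brightness depends on its probes, so levels were not ranked between genes. Each was judged against 1205 probe sets of odorant and vomeronasal receptors on the same array, genes hardly used outside the nose, and background was set at their 95th percentile. It lay at 4.58 to 4.79 on the epidermal arrays and at 5.77 to 5.93 on the DRG arrays, on the log2 signal scale. All 16 general neuron genes, Rbfox3 and Scn10a among them, were above background on the 6 DRG arrays, with a list mean of 10.95 to 11.21, against 4.57 to 4.83 in epidermis. The 23 keratinocyte genes averaged 10.30 to 11.22 in epidermis and 5.85 to 6.33 in DRG. The highest DRG values were those of mutant replicate 1, 6.33, and control replicate 3, 6.05, the latter close to the next, 5.97 in control replicate 2. Trpa1 itself was below background on all 12 epidermal arrays. In DRG its probe set read 8.99, 8.89 and 9.08 in control and 8.84, 8.44 and 8.54 in mutant mice, a difference of -0.38 ± 0.11 (log2 fold change ± SE, limma, adjusted p = 0.48). The exons that this probe set reads are not known here, so it does not check the deletion.

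In DRG, 8 of the 9 members were above background on all 6 arrays, against 69.3% of the 21789 probe sets with exactly 1 gene, and Vip was below it on all 6. The Tac1, Calcb and Adcyap1 probe sets were brighter on every DRG array than all 1205 receptor probe sets. At most 1 receptor probe set was brighter than Sst, and at most 3 were brighter than Nppb or Gal. Nts and Npy stood closer to background, with 3 to 22 and 19 to 42 receptor probe sets above them. With the 99th percentile as background, 6 members remained above it on all 6 arrays, and Nts and Npy did not. Vip was dimmer than 406 to 499 of the receptor probe sets.

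**Figure D1:**
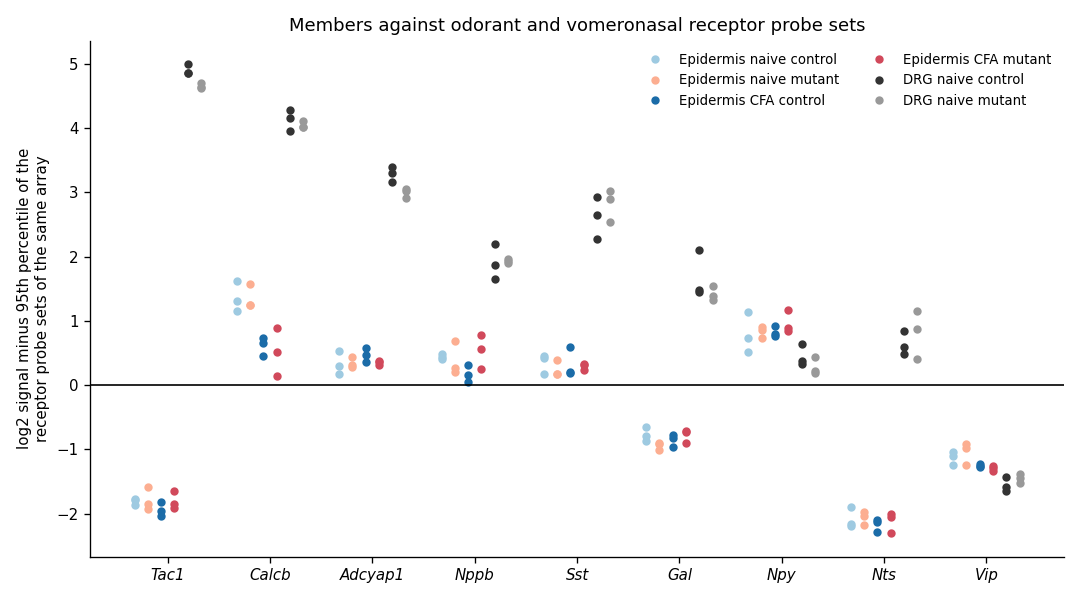
Log2 signal of each member minus the 95th percentile among the receptor probe sets of the same array (vertical axis, log2 units), by member (horizontal axis), 1 point per array and 1 colour per group. The DRG points of Tac1 sit at least 4.63 above the line at 0, and in epidermis Tac1, Gal, Nts and Vip lie below the line on all 12 arrays.

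Of the peptides of nociceptors, Tac1 and Adcyap1 were dimmer in mutant than in control DRG on every array, by 1.21-fold and 1.25-fold in the mean, yet neither passed the test across all probe sets, and Calcb differed less. Tac1 read 10.69, 10.78 and 10.88 on the control arrays and 10.55, 10.41 and 10.55 on the mutant arrays. The groups did not overlap, and the log2 fold change was -0.28 ± 0.08 (SE, 3 arrays each, 95% interval -0.46 to -0.10) with an adjusted p of 0.47 by limma. Adcyap1 read 9.14, 9.08 and 9.28 in control and 8.95, 8.82 and 8.76 in mutant DRG. Here too each mutant array lay under each control array, with a log2 fold change of -0.32 ± 0.08 (95% interval -0.51 to -0.14, adjusted p = 0.38). Calcb read 9.99, 9.89 and 10.17 in control and 9.94, 9.88 and 9.87 in mutant DRG. Its groups overlapped, and the difference of -0.12 ± 0.08 had a 95% interval of -0.31 to 0.07 (adjusted p = 0.75).

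**Figure D2:**
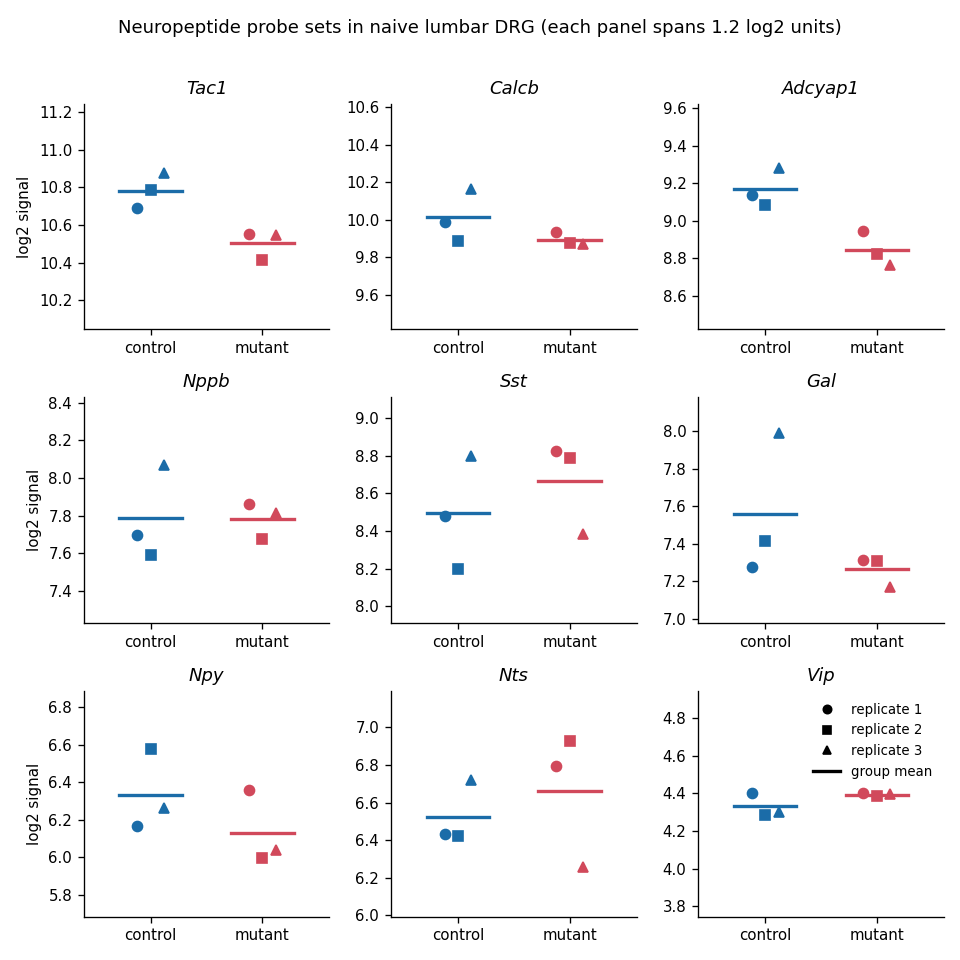
Log2 signal of the 9 members in naive DRG (vertical axis, each panel spanning the same width of log2 units at its own level), control in blue and mutant in red, with 1 symbol per replicate and a bar at the group mean. In Tac1 and Adcyap1 all mutant points lie below all control points, and in the other 7 panels the groups overlap.

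The itch peptides showed no such separation. Nppb read 7.70, 7.59 and 8.07 in control and 7.86, 7.68 and 7.82 in mutant DRG, with a 95% interval of the log2 fold change from -0.28 to 0.28 (adjusted p = 1.00). Sst read 8.48, 8.20 and 8.80 in control and 8.82, 8.79 and 8.39 in mutant mice. The spread within each group covered the difference of 0.17 ± 0.16 (95% interval -0.20 to 0.54, adjusted p = 0.81). Nts read 6.43, 6.42 and 6.72 in control and 6.79, 6.93 and 6.26 in mutant DRG, a difference of 0.14 ± 0.17 (95% interval -0.24 to 0.51, adjusted p = 0.86). In Sst and Nts alike, mutant replicates 1 and 2 were higher than mutant replicate 3.

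Of the peptides tied to injury, Gal read 7.28, 7.42 and 7.99 on the control arrays and 7.31, 7.31 and 7.17 on the mutant arrays. Control replicate 3 stood above the other 5 arrays, and the difference of -0.30 ± 0.16 had a 95% interval of -0.67 to 0.07 (adjusted p = 0.72). Without control replicate 3 that difference was -0.08. Npy read 6.17, 6.58 and 6.26 in control and 6.36, 6.00 and 6.04 in mutant DRG, with overlapping groups and a difference of -0.20 ± 0.13 (95% interval -0.50 to 0.09, adjusted p = 0.74). Vip read 4.29 to 4.40 over the 6 arrays, all below background, so no fold is given. Of 18 genes known to change in injured sensory neurons, 0 passed the test. At an unadjusted p under 0.05, 2 of them were higher and 1 was lower, beside 839 higher and 834 lower of 23410 probe sets. The higher were Sprr1a at 0.41 ± 0.13 and Hspb1 at 0.16 ± 0.06 (adjusted p = 0.58 and 0.68). The lower was Il1rapl1 at -0.20 ± 0.07 (adjusted p = 0.60). Atf3, the injury transcription factor, differed by 0.07 ± 0.07 (adjusted p = 0.83).

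**Figure D3:**
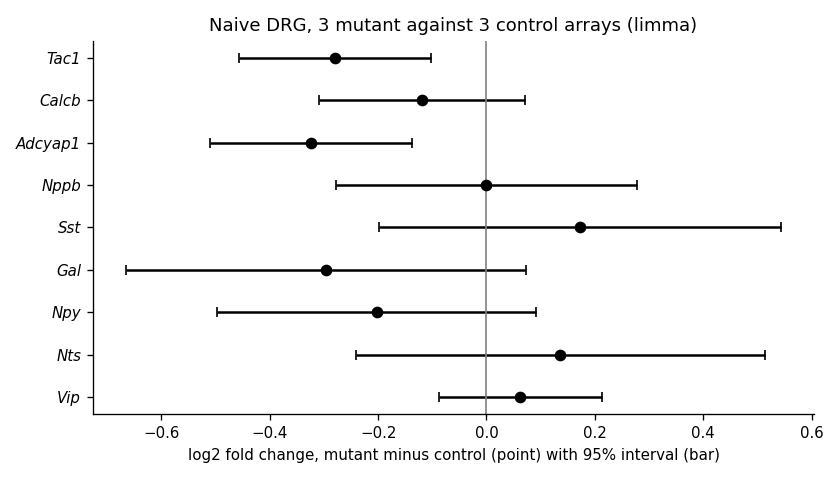
Log2 fold change of each member in naive DRG, mutant minus control (horizontal axis; point and 95% interval from limma, 3 arrays against 3). The intervals of Tac1 and Adcyap1 lie below 0, those of the other 7 members include 0, and no adjusted p is under 0.05.

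Over the 9 members, 0 passed an adjusted p under 0.05 in DRG, where 17 of 23410 probe sets, 0.0726%, did. At an unadjusted p under 0.05, 2 members were lower and 0 higher, and 3.56% of all probe sets were lower by that mark. The groups of 2 members did not overlap with the mutant below, against 6.77% of all probe sets. Ordinary ANOVA called 0 members as well. The median log2 fold change of the members was -0.12, beside 0.00 over all probe sets. In a whole ganglion, fewer neurons of a class and less RNA in each neuron cannot be told apart. Control replicate 3 was the brightest of the 6 arrays for 5 members, and mutant replicate 3 the dimmest for 4. Leaving out the 2 arrays with the highest keratinocyte means, mutant replicate 1 and control replicate 3, 0 members passed. At an unadjusted p under 0.05, 3 members were then lower, beside 566 of 23410 probe sets.

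Markers of neuron classes were read beside the peptides, and 0 of 30 passed the test in DRG. At an unadjusted p under 0.05 there were 2 higher and 5 lower markers, beside 839 higher and 834 lower of 23410 probe sets. Among the 5 lower were Trpv1 and Gfra3, found in peptidergic nociceptors. Trpv1, the capsaicin receptor, read 9.81, 9.89 and 10.09 in control and 9.63, 9.47 and 9.56 in mutant DRG (-0.37 ± 0.09, adjusted p = 0.32). Gfra3, the artemin co-receptor, read 9.71, 9.72 and 9.90 against 9.59, 9.36 and 9.41 (-0.33 ± 0.09, adjusted p = 0.45). In both, as in Tac1 and Adcyap1, the groups did not overlap with the mutant below, which held for 6.77% of all probe sets. Kit and Oprm1, of the same list, differed by -0.03 ± 0.09 and -0.12 ± 0.07 (adjusted p = 0.94 and 0.73). Osmr, a subunit of the oncostatin M receptor found in itch neurons, differed by -0.41 ± 0.10 (adjusted p = 0.31). Cysltr2, Il31ra and Htr1f, of the same list, differed by -0.06 ± 0.15, 0.09 ± 0.15 and -0.08 ± 0.09 (adjusted p = 0.94, 0.90 and 0.86). Th, the tyrosine hydroxylase of a class of touch neurons, differed by -0.28 ± 0.08 (adjusted p = 0.50). The opposite direction was seen in Mrgprb4, a receptor of fibres that respond to stroking, at 8.14, 7.35 and 7.65 in control and 9.19, 9.10 and 8.74 in mutant DRG. That was a difference of 1.30 ± 0.19, with no overlap and an adjusted p of 0.071. The other higher marker was Mrgprx1, at 0.21 ± 0.08 (adjusted p = 0.66). The median over the 30 markers was 0.06, and that over the 16 general neuron genes was also 0.06.

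The genes that cut, pack and receive the peptides were likewise without a call in DRG. Of 22 measured genes for processing, 0 passed, and at an unadjusted p under 0.05 there were 1 higher and 2 lower. For this and the next 2 lists, the counts over all 23410 probe sets were 839 higher and 834 lower by that mark. Scg2, a dense-core vesicle protein, differed by -0.22 ± 0.08 (adjusted p = 0.65) and Pam, which amidates peptide ends, by -0.20 ± 0.08 (adjusted p = 0.68), while the convertase Furin differed by 0.26 ± 0.10 (adjusted p = 0.67). Of 29 peptide receptor genes 0 passed, 3 were higher and 0 lower at the unadjusted mark, with Galr1, a galanin receptor, at 0.35 ± 0.13 (adjusted p = 0.65). Of 46 other peptide genes 0 passed, 1 was higher and 2 were lower. Cartpt, the precursor of CART peptide, had the smallest p among them, with 7.98, 8.10 and 8.40 in control and 7.84, 7.85 and 7.23 in mutant DRG (-0.52 ± 0.18, adjusted p = 0.61).

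Across the 6 DRG arrays, 193 listed genes were above background, members included. Each member among them was set beside all the others, and Pearson's r is given as a description. Tac1 was most like Trpv1 (r = 0.98) and Cd3e, a T cell gene (r = 0.98). Adcyap1 was most like Gfra3 (r = 0.98) and Th (r = 0.96), and Nppb was most like Cysltr2, a leukotriene receptor of the itch class (r = 0.96), and Krt8 (r = 0.93). Sst and Nts were among each other's nearest 2 (r = 0.86), with Prrxl1 nearer to Sst (r = 0.90) and Edn1 the second for Nts (r = 0.80). Calcb and Gal shared the nearest pair, Fabp7 of satellite glia (r = 0.95 and 0.92) and Htr1f (r = 0.92 and 0.91). Npy was nearest to Gnrh1 (r = 0.94) and Cort (r = 0.93). The 6 points of each r share their arrays, hold both genotypes and are few.

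In epidermis, where sensory endings are present but neuron cell bodies are not, 5 of the 9 members were above background on all 12 arrays: Calcb, Adcyap1, Nppb, Sst and Npy. Of all probe sets with exactly 1 gene, 64.1% were. Tac1 read 2.66 to 3.07, Gal 3.57 to 4.02, Nts 2.39 to 2.73 and Vip 3.34 to 3.72, all below background on all 12. The 5 members above it were not far above. Adcyap1 at 4.77 to 5.28, Nppb at 4.83 to 5.53 and Sst at 4.77 to 5.39 were each dimmer than at least 16 receptor probe sets on every array. None of these 3 exceeded the 99th percentile of receptor probe sets on any epidermal array, and Npy, at 5.11 to 5.89, did so on 5 of 12. Calcb was the exception, above the 99th percentile on all 6 naive arrays and on 1 of the 6 CFA arrays. By that stricter mark 0 of 9 members were above background on all 12 arrays. Of 10 genes used to mark Merkel cells, the touch cells of the epidermis, 4 or 5 exceeded background on all 3 arrays of each group. Chga did so in every group, while Krt20, Piezo2 and Rab3c were below background on all 12 arrays.

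No member was called between genotypes in skin. In naive epidermis 0 of 9 passed by limma and 0 had an unadjusted p under 0.05, where 0.0299% of all probe sets passed and 8.94% had such a p. Calcb read 6.22, 5.89 and 5.78 in control and 5.83, 5.92 and 6.21 in mutant naive epidermis, with a 95% interval of the difference from -0.30 to 0.35. In CFA epidermis 0 of 9 passed and 1, Nppb, was higher in the mutant at an unadjusted p under 0.05, beside 0.179% and 8.96% of all probe sets. Nppb read 4.84, 5.03 and 4.86 in CFA control and 5.03, 5.53 and 5.28 in CFA mutant epidermis (0.37 ± 0.13, adjusted p = 0.43), and the groups overlapped. Adcyap1 was lower in all CFA mutant arrays than in all CFA control arrays, 5.08 to 5.12 against 5.15 to 5.28, a pattern of 5.6% of all probe sets, with a difference of -0.11 ± 0.09 (adjusted p = 0.79). Ordinary ANOVA called 0 members in either comparison.

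After CFA, the Calcb signal of the epidermis fell in both genotypes, by 1.52-fold in control mice and by 1.66-fold in the mutants. In control epidermis it went from 6.22, 5.89 and 5.78 in naive skin to 5.46, 5.44 and 5.16, a log2 fold change of -0.61 ± 0.13 (95% interval -0.91 to -0.31, adjusted p = 0.0095). In mutant epidermis it went from 5.83, 5.92 and 6.21 to 5.28, 4.89 and 5.60, a log2 fold change of -0.73 ± 0.18 (95% interval -1.13 to -0.33, adjusted p = 0.017). In both genotypes each CFA array lay below each naive array, which held for 22% of all probe sets in control and 19.5% in mutant epidermis. After CFA the signal stood in the mean only 0.62 log2 units above background in control and 0.52 in mutant epidermis. Background may therefore limit both folds. Calls were common in these comparisons, 26.3% of all probe sets in control and 26% in mutant epidermis. By ordinary ANOVA, the kind of test the study used, the Calcb call was lost in both genotypes (adjusted p = 0.088 in control and 0.12 in mutant epidermis). Without naive mutant replicate 3 the call in mutant epidermis was also lost (-0.62, limma, adjusted p = 0.061). No difference in this fall was detected between genotypes (-0.12 ± 0.24, 95% interval -0.64 to 0.40, adjusted p = 0.93).

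**Figure D4:**
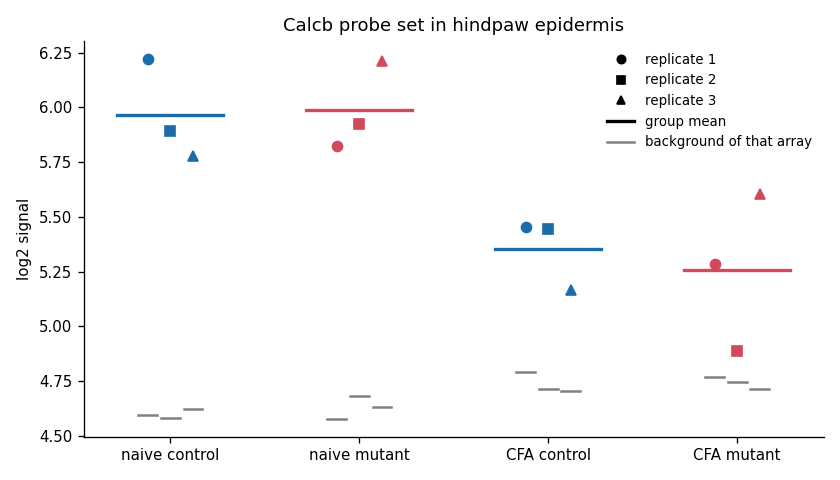
Log2 signal of the Calcb probe set in hindpaw epidermis (vertical axis) in the 4 groups, with 1 symbol per replicate, a bar at the group mean and a grey dash at the background of each array, the 95th percentile among its receptor probe sets. The naive arrays read 5.78 to 6.22 and the CFA arrays 4.89 to 5.60, all above their background.

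Other transcripts moved in the same arrays, where 26.3% of all probe sets were called after CFA in control and 26% in mutant epidermis. The mean of the 23 keratinocyte genes was 11.13 to 11.22 in naive and 10.30 to 10.56 in CFA epidermis, with 12 of 23 lower and 3 higher by the test in control and 9 lower and 3 higher in mutant mice. The general neuron genes averaged 4.57 to 4.69 in naive and 4.58 to 4.83 in CFA epidermis, and 6 of 16 were above background on all 3 naive control arrays. The 11 immune cell genes averaged 5.20 to 5.80 in naive and 5.53 to 6.36 in CFA epidermis. In each of the 4 groups 7 of them exceeded background on all 3 arrays, and Aif1, Cd79a, Mcpt4 and Cma1 were below it. They did not move together: 4 were called higher and 2 lower after CFA in control, and 0 higher and 1 lower in mutant epidermis. The part of these cells in the Calcb result was not tested. Calca and Calcb are closely similar neighbouring genes, and a share of Calca transcript in this signal was not tested either.

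Of the other 8 members, none passed the test in control epidermis after CFA. Gal was called in mutant epidermis (adjusted p = 0.046), but its probe set was below background on all 12 arrays, so no fold is given, and the call was lost in 10 of 13 alternatives. In control epidermis Adcyap1 was higher on all CFA than on all naive arrays, 5.15 to 5.28 against 4.77 to 5.12, a pattern of 21.7% of all probe sets (0.27 ± 0.11, adjusted p = 0.092). In mutant epidermis this held for Adcyap1, Sst, Gal and Npy, against 24% of all probe sets, with Npy at 5.44, 5.42 and 5.53 in naive and 5.62, 5.64 and 5.89 in CFA epidermis (0.25 ± 0.09, adjusted p = 0.081). For the difference in CFA response between genotypes 0 members passed by limma, 0 by ordinary ANOVA and 0 at an unadjusted p under 0.05, beside 0.0256% and 8.26% of all probe sets.

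Other genes of the peptide system were called after CFA in the epidermis of both genotypes. Calls were made for 26.3% of all probe sets in control and 26% in mutant epidermis. Of 46 other peptide genes, 8 rose and 5 fell in control and 7 rose and 7 fell in mutant epidermis. On all 12 arrays, background was exceeded by 7 of these rises and 4 of these falls in control and by 4 and 4 in mutant epidermis. Nmu, the gene of neuromedin U, read 7.72, 7.14 and 6.95 in naive and 5.13, 4.94 and 4.60 in CFA control epidermis, a fall of 5.21-fold, and it fell by 4.98-fold in mutant epidermis. It was above background on 11 of the 12 arrays. The reading of 4.60 lay below that array's background of 4.70, so the fold in control epidermis is limited by background. Adm, the gene of adrenomedullin, a vessel-dilating peptide of the CGRP family, read 6.75, 6.39 and 6.60 in naive control epidermis and 5.62, 5.15 and 4.95 after CFA. It fell by 2.52-fold in control and 2.07-fold in mutant mice, and Edn1, the gene of endothelin-1, by 2.04-fold and 1.96-fold. All 6 of these falls passed the test, with adjusted p from 7.5e-07 to 0.0035.

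Of 22 processing genes, 3 rose and 4 fell after CFA in either genotype, beside 26.3% and 26% of all probe sets called. The convertase Pcsk6 fell by 4.20-fold in control mice and 4.17-fold in the mutants, and the peptide-degrading enzyme Ide by 2.80-fold and 3.40-fold, while Ece1, which cuts endothelin precursors, rose by 1.47-fold and 1.54-fold. Mme, the neprilysin that degrades substance P, was called lower but was below background on all 12 arrays. Of 29 receptor genes, 3 rose and 1 fell in either genotype, beside the same shares of all probe sets. Background was exceeded on all 12 arrays by 0 of the 3 rises and by the 1 fall in either genotype. Npr2, called higher in control epidermis, exceeded it on 0 arrays. Sort1, a sorting protein that also binds neurotensin, fell by 1.54-fold and 1.63-fold. Tacr1, the receptor of substance P, was called higher in both genotypes and was above background on all 6 CFA arrays and on 3 of 6 naive arrays, reading 4.66, 4.32 and 4.68 in naive and 4.93 to 5.17 in CFA control epidermis. Calcrl, the core of the CGRP receptor, was called higher in control epidermis and was above background on 2 of its 3 CFA arrays.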

How the data were processed

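RNA of hindpaw epidermis and lumbar DRG was hybridized to 18 arrays, 3 biological replicates per group, and the number of arrays limits the precision. The authors deposited log2 signals per probe set after RMA (background subtraction, quantile normalization and probe summary), and analysed them by ANOVA in Partek. RMA gives arrays a common distribution, so a change shared by all transcripts would not be seen. The tissues have distributions of their own, so tests were made within a tissue. Values were used as deposited, with 0 missing. The platform's list of genes pairs 23410 of 35556 probe sets with at least 1 gene, 21789 of them with exactly 1.

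Linear models in limma 3.58.1 (R 4.3.3; lmFit, then eBayes) were fitted to the arrays of each comparison, two-sided, p-values were adjusted by Benjamini and Hochberg over all 23410 named probe sets, and calls were made at an adjusted p under 0.05. The fits were first tested on simulated data. The data.table package (version 1.17.8), Python 3.11.15, numpy 2.4.6, pandas 2.3.3 and matplotlib 3.10.9 were also used. The members, lists and tests were chosen with earlier results of these data known. All members are named, and of each other list some of the genes past the threshold or with the smallest p in DRG. Atf3, Chga, Il31ra, Kit, Mrgprx1, Oprm1, Th and Trpa1, and which of the called genes to show, were chosen after their values were seen. So were the DRG differences of Cysltr2 and Htr1f. Alternative settings were quantile normalizing once more, centring arrays on their medians, dropping dim probe sets, including unnamed ones, moderation with trend and robust options, ordinary ANOVA, replicate number as a block, all epidermal groups in 1 fit, 2-fold thresholds, leaving out each array, and other background marks. Replicate numbers did not consistently pair the samples: in DRG, arrays with the same number correlated at 0.18, -0.05 and 0.15 in their deviations from the group means. Between genotypes in CFA epidermis, replicate 3 correlated at 0.23 with its own number and at most -0.10 with the others. Replicates 1 and 2 there correlated at 0.00 and 0.02 with their own numbers. Whether arrays of the same number share mice is not given.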

Additional observations from a re-analysis of the deposited data

How the results depend on the processing

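In DRG, the count of members past the threshold was 0 under all alternatives, and Tac1 and Adcyap1 kept their direction and an unadjusted p under 0.05 in all 14 (log2 fold change -0.33 to -0.23 and -0.38 to -0.27, adjusted p 0.098 to 1.00 and 0.12 to 0.98). The replicate block left 0 members called in DRG and changed no member's call in any comparison, while probe sets called in DRG went from 17 to 51. Over all probe sets that count was 203 without control replicate 1, 8 without control replicate 2, 9 without mutant replicate 2 and 29 with trend and robust moderation. It was 7 with all probe sets tested, 1 by ordinary ANOVA and 2 without the 2 arrays with the highest keratinocyte means. The corresponding counts ran over the alternatives from 0 to 79 in naive epidermis (7 as reported), 0 to 289 in CFA epidermis (42), 3895 to 7537 and 3859 to 6521 after CFA in control (6150) and mutant epidermis (6096), and 0 to 87 for the difference in response (6). Without these 2 arrays the difference of Nppb in DRG turned to 0.10, and it ran from -0.10 to 0.14 when each array was left out. That of Sst in CFA epidermis ran from -0.11 to 0.13. Of 780 member values under alternatives, 43 changed sign. Of these 43, 3 were past their standard error in either fit, and 40 lay within it in both fits. After CFA, 1 member was called in control epidermis, 0 by ordinary ANOVA and at 2-fold, and 2 with all epidermal groups in 1 fit, which added Adcyap1. In mutant epidermis 2 were called, 0 by ordinary ANOVA and at 2-fold, 0 to 2 when an array was left out, and 1 under further quantile normalization, median centring, no dim probe sets, all probe sets tested, or trend and robust moderation, in each case Calcb. Calcb kept its direction throughout (-0.70 to -0.48 in control, -0.90 to -0.54 in mutant). In epidermis 5 members were above background and 0 at the 99th percentile. The causes were not tested. Signals near background, as for 4 of the 5 members in epidermis and for Calcb after CFA, limit what these arrays can show.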
